A study of Arabidopsis thaliana with 10 samples.

Results

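This account follows 43 probe sets whose signal was higher in all 3 TaSIN lines of Arabidopsis thaliana than in both control lines, out of 22746 probe sets measured. The 10 Affymetrix arrays came from seedlings harvested at 12 days of age, grown without stress in long days, with 2 arrays for each of 5 lines. TaSIN was expressed constitutively in 3 lines. FL3 carried its full-length form, while a shorter form, from which the transmembrane motif is missing, was carried by dC26 and dC27 (labelled with a Δ in place of the d). VC, transformed with the empty vector, and untransformed Col-0 were the controls. FL3 is 1 line, dC26 and dC27 are 2 lines of 1 construct, and the promoter that drives TaSIN is not given in the sources used here. The level of TaSIN itself was not analysed here.

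Members were chosen from the measured values. On the scale of log2(intensity + 16), the mean of each of FL3, dC26 and dC27 had to exceed the higher of the VC and Col-0 means by 0.8 or more. That held for 51 probe sets, which is 0.224% of all, and 8 of these were set aside by name: AT2G21640, AT2G04050, AT2G18190, AT2G20720, AT2G32020, AT5G51440, GSTU22 and GSTU25. Of the 43 that remained, the platform annotation listed 1 gene for 19, several for 1 and none for 23. By the rule, AT5G09570, NDB2 and genes with GSTU, UGT or CYP names were to be left out too. AT5G09570 and NDB2 did not reach the cut. Leaving out by name could not act on the 23 with no gene listed. Genes of the kinds set aside may therefore be among them. Because the rule used each line against the controls, those differences are given below as a description with no test. Only differences among the TaSIN lines, and of VC from Col-0, were tested for these probe sets. The VC and Col-0 means also entered the rule, so the test of VC from Col-0 is not independent of the selection. Just inside the cut lay AT5G40690 and the unnamed probe sets 259069_at and 250024_at, at 0.81, 0.81 and 0.80, and just outside it AT4G39300, AT5G22440 and AT3G04230, at 0.79, 0.78 and 0.77.

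As background, plants whose mitochondria fail to respire normally switch on a set of nuclear genes, a response known as mitochondrial retrograde signalling, with efflux transporters, alternative respiratory enzymes and stress proteins among its targets. Growth draws on another large set of nuclear genes, those for the proteins of the cytosolic ribosome, the particle that translates most messenger RNA. In Arabidopsis each ribosomal protein is encoded by a small family of near-identical genes, and these families are usually regulated together. The 19 named genes fell, by known role, into membrane transport and ATPases, metabolism, translation, regulation of transcription, stress-induced proteins, and genes with no role stated here.

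**Figure D1:**
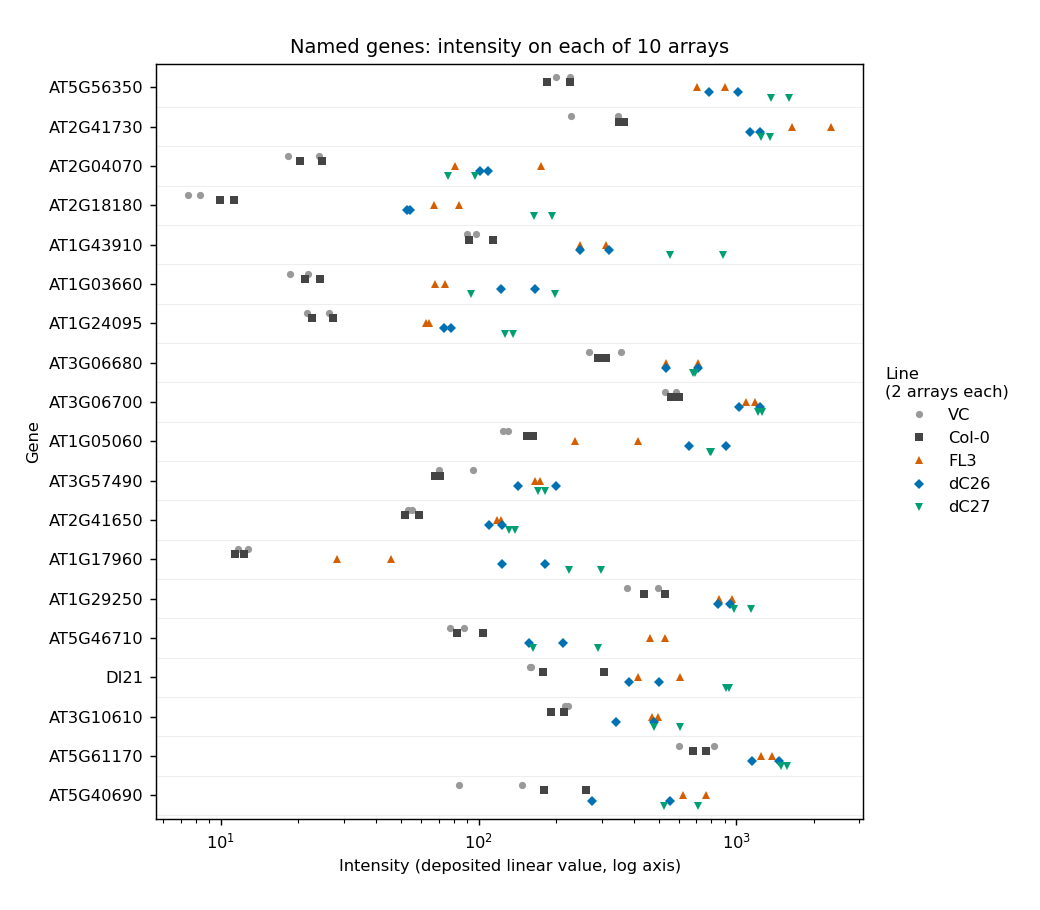
Intensity of the 19 named genes on each of the 10 arrays (x axis, deposited linear values on a log axis), with 2 points per line, for VC and Col-0 (light and dark grey) and FL3, dC26 and dC27 (coloured). In every row the 6 TaSIN arrays lie to the right of the 4 control arrays. The gap is wide for AT5G56350 and narrow for AT5G40690, where the highest control array reads 261 and the lowest TaSIN array 276.

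In all 43 probe sets every TaSIN array was above every control array. This was so for 4.81% of all probe sets, and since the rule used the same differences nothing is read from it. The median difference from the higher control line was 1.16 on the log2 scale in FL3, 1.15 in dC26 and 1.81 in dC27, beside -0.05, -0.03 and -0.03 over all probe sets. The difference ranged from 0.81 to 4.54 in FL3, from 0.80 to 3.17 in dC26 and from 0.97 to 3.97 in dC27. The line with the highest mean was dC27 for 30 of the 43, FL3 for 9 and dC26 for 4. Over all probe sets dC27 also had the most called higher than the controls by limma, 8.2% beside 2.2% in FL3 and 1.91% in dC26. No trait of the 43 is therefore read from this count.

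**Figure D2:**
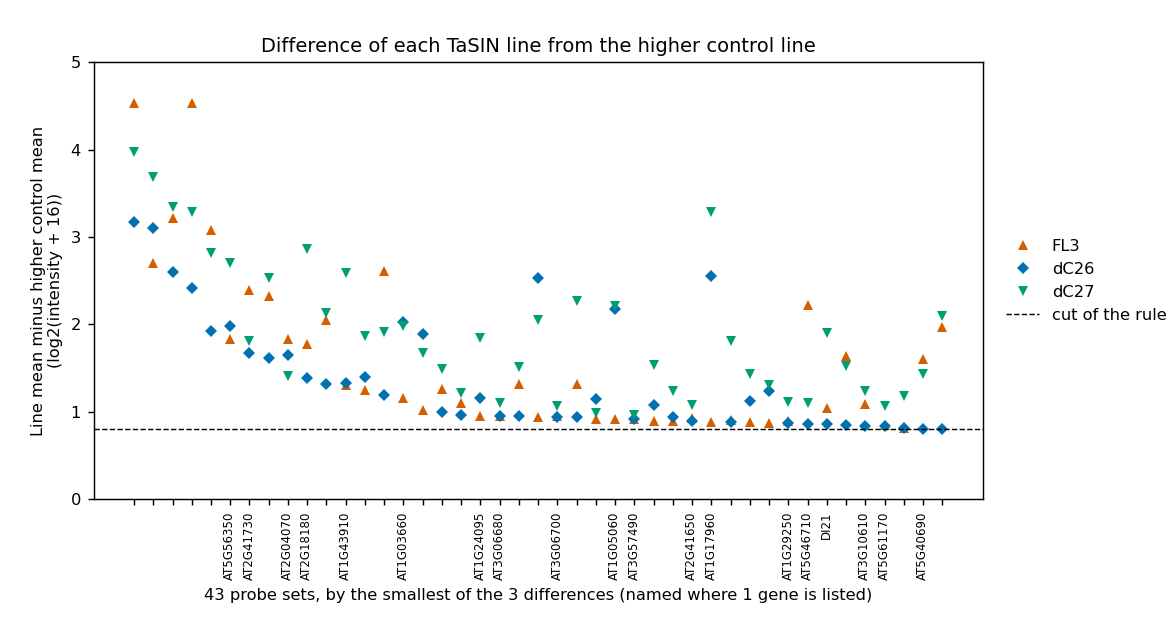
Line mean minus the higher control mean on the log2(intensity + 16) scale (y axis) for FL3, dC26 and dC27, for the 43 probe sets ordered by the smallest of their 3 differences (x axis). The dashed line is the cut of 0.8. The named genes spread most at AT1G17960, where the 3 lines read 0.89, 2.55 and 3.28, and least at AT3G57490, where they read 0.92, 0.91 and 0.97.

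Among the genes for membrane transport and ATPases, AT2G04070 encodes an efflux transporter of the MATE type, which exports small organic molecules. It read 24.1 and 18.3 in VC, 20.3 and 24.6 in Col-0, 175 and 81.4 in FL3, 101 and 109 in dC26 and 75.8 and 96.8 in dC27. The highest control array read 24.6 and the lowest TaSIN array 75.8, and the 2 FL3 arrays were farther apart than those of any other line. On the log2(intensity + 16) scale that is 3.55-fold in FL3, 3.15-fold in dC26 and 2.65-fold in dC27, a scale that understates the change of a gene read this low in the controls. AT2G04070 and the MATE gene AT2G04050 have 4 protein-coding genes between them in the TAIR10.1 annotation.

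AT2G18180 encodes a lipid-transfer protein of the Sec14 type and is the immediate neighbour of the ATPase gene AT2G18190, with 0 protein-coding genes between them. It read 8.29 and 7.48 in VC and 11.2 and 9.90 in Col-0, near the bottom of the scale, and 67.4 and 83.9 in FL3, 52.9 and 54.5 in dC26 and 193 and 164 in dC27. The control arrays lay within a narrow range, and the lines with TaSIN stood in the order dC26, FL3, dC27 with no overlap between their arrays. dC26 was below dC27 by a log2 difference of -1.47 ± 0.16 (± SE, dC26 minus dC27, limma, Benjamini-Hochberg adjusted p = 0.003). This difference passed the threshold under every one of the 18 alternatives, with values from -1.71 to -1.04.

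AT1G43910 encodes an ATPase of the AAA type. Its intensities were 90.0 and 97.4 in VC, 92.1 and 114 in Col-0, 311 and 247 in FL3, 322 and 247 in dC26 and 885 and 550.3 in dC27. FL3 and dC26 covered nearly the same range, and both dC27 arrays stood above it. The log2 difference of dC26 from dC27 was -1.26 ± 0.23 (limma, Benjamini-Hochberg adjusted p = 0.024), and this call ended without dC26 replicate 2 (adjusted p = 0.13) or dC27 replicate 1 (adjusted p = 0.069).

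Metabolism was represented by AT5G56350, which encodes a pyruvate kinase, the enzyme of the last step of glycolysis. The gene read 199 and 227 in VC, 185 and 227 in Col-0, 900.0 and 706 in FL3, 781 and 1011 in dC26 and 1595 and 1358 in dC27. The controls lay between 185 and 227, FL3 and dC26 overlapped, and dC27 was above both. Relative to the higher control line the means were 3.56-fold in FL3, 3.96-fold in dC26 and 6.51-fold in dC27. The differences between the TaSIN lines did not pass the threshold (limma, adjusted p = 0.3 for FL3 against the mean of the dC lines and 0.07 for dC26 against dC27).

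AT1G24095 encodes a thiol-disulphide oxidoreductase-type protein. It gave 21.6 and 26.2 in VC, 22.7 and 27.2 in Col-0, 62.3 and 64.2 in FL3, 73.3 and 77.9 in dC26 and 126 and 136 in dC27. Replicate arrays were close in every line, and the lines with TaSIN stood in the order FL3, dC26, dC27 with no overlap. The log2 difference of dC26 from dC27, -0.68 ± 0.15, passed narrowly (limma, adjusted p = 0.045). That call ended whichever 1 of the 10 arrays was left out, with adjusted p from 0.065 to 0.12, and with a pseudocount of 1 (adjusted p = 0.059).

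The largest group by role was translation, with 5 genes for cytosolic ribosomal proteins, 1 for a threonyl-tRNA synthetase and 1 for an RNA-binding protein of the Alba type. AT3G06680 and AT3G06700 both encode the large-subunit protein L29 and lie on either side of 1 other protein-coding gene. AT3G57490 encodes the small-subunit protein S2, AT3G10610 the small-subunit protein S17 and AT5G61170 the small-subunit protein S19. In each of the 3 lines the means of these 5 genes lay between 1.79-fold and 2.35-fold over the higher control line.

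AT3G06680 read 269 and 358 in VC, 290.3 and 311 in Col-0, 708 and 534 in FL3, 533 and 709 in dC26 and 679 and 694 in dC27. AT3G06700 read 528 and 581 in VC, 557 and 601 in Col-0, 1093 and 1178 in FL3, 1023 and 1238 in dC26 and 1253 and 1212 in dC27. In this L29 pair the control and TaSIN arrays were well apart, and the dC26 arrays spanned the range of FL3. Since the genes encode the same protein, their probe sets may share sequence, and whether each reads only its own gene was not tested.

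AT3G57490 read 70.4 and 95.3 in VC and 71.0 and 67.6 in Col-0, against 173 and 166 in FL3, 142 and 199 in dC26 and 181 and 171 in dC27. AT3G10610 read 217 and 221 in VC and 191 and 215 in Col-0, against 497 and 469 in FL3, 342 and 479 in dC26 and 602 and 478 in dC27. AT5G61170 read 601 and 818 in VC and 678 and 761 in Col-0, against 1369 and 1248 in FL3, 1145 and 1465 in dC26 and 1487 and 1569.7 in dC27. In each of these small-subunit genes dC26 replicate 1 was the lowest of the TaSIN arrays, and still above every control array.

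None of the 5 ribosomal protein genes passed the test between full-length and truncated TaSIN. FL3 minus the mean of the dC lines ranged from -0.10 ± 0.15 (log2 ± SE) in AT5G61170 to 0.05 ± 0.15 in AT3G10610, with adjusted p from 0.86 to 0.98 (limma), which does not show that the levels were equal. dC26 minus dC27 was below 0 in all 5, from -0.39 ± 0.18 in AT3G10610 to -0.05 ± 0.18 in AT3G57490, and did not pass in any (limma, adjusted p from 0.28 to 0.92).

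AT1G17960, the threonyl-tRNA synthetase gene, whose product attaches threonine to its transfer RNA, had the largest difference between FL3 and the dC lines among the named genes. It read 11.7 and 12.8 in VC and 12.3 and 11.4 in Col-0, and 45.7 and 28.2 in FL3, 181 and 123 in dC26 and 225 and 298 in dC27. The control arrays were nearly the same, FL3 was above them, and both truncated lines were far above FL3. FL3 was lower than the mean of the dC lines by a log2 difference of -2.03 ± 0.20 (limma, adjusted p = 0.004), with both FL3 arrays below all 4 dC arrays, and this passed under every one of the 18 alternatives, at values from -2.42 to -1.39. dC26 and dC27 differed by -0.73 ± 0.23, which did not pass (adjusted p = 0.12).

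AT1G29250, the Alba-type gene, gave 377 and 497 in VC, 437 and 531 in Col-0, 964 and 857 in FL3, 845 and 942 in dC26 and 983 and 1142 in dC27. FL3 and dC26 overlapped and dC27 was above both, at 1.86-fold in FL3, 1.82-fold in dC26 and 2.16-fold in dC27 over the higher control line.

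The ribosomal protein genes that the rule did not select were then examined with a list of 225 loci of the cytosolic ribosome. This list was written from general knowledge of the gene family after the values of the 5 genes above had been seen, so it is a description and no set was tested. The annotation named 131 of the loci, and 126 were not among the 43 probe sets. AT5G22440 and AT3G04230, just outside the cut, are 2 of them, encoding ribosomal proteins L10a and S16. In FL3 121 of the 126 were above the mean of the controls and the median difference was 0.68 on the log2 scale. In dC26 119 were above, with a median of 0.41, and in dC27 119, with a median of 0.73. Over all probe sets the share above the controls was 47.8%, 51.0% and 50.3% in FL3, dC26 and dC27, with medians of -0.01, 0.00 and 0.00. These 3 comparisons share the same 4 control arrays. Probe sets of near-identical family members may share sequence, and whether each reads only its own gene was not tested. The 126 may therefore not be separate readings, here and in the counts below.

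By limma 81 of the 126 rose in FL3, 27 in dC26 and 106 in dC27 (Benjamini-Hochberg adjusted p under 0.05), where 2.2%, 1.91% and 8.2% of all probe sets were called higher. By limma 0 of the 126 fell, where 0.488%, 0.8% and 8.49% of all probe sets were called lower. Of the 126, 109, 89 and 113 had an unadjusted p under 0.05 in either direction, beside 13.2%, 18.3% and 29.1% of all probe sets. For comparison at high signal, the third of all probe sets with the highest mean was called higher at 5.12%, 3.46% and 12.2%. Between the TaSIN lines 0 of the 126 were called in FL3 against the dC lines (median log2 difference 0.08, 6 at an unadjusted p under 0.05) and 2 in dC26 against dC27, both lower (median -0.30, 55 at an unadjusted p under 0.05). Over all probe sets 0.207% were called in the first of these contrasts and 0.822% were called lower in the second, with 10.8% and 17.7% at an unadjusted p under 0.05. AT1G15250, which encodes the large-subunit protein L37, had a mean intensity of 98.0 over the controls, of 282 ± 4.51 (SD, n = 2) in FL3, of 182 ± 2.32 (n = 2) in dC26, and in dC27 of 226 ± 34.2 (n = 2). This gene was among those with the largest difference in FL3 and is not typical. Over the 126 the highest log2 difference in FL3 was 1.39 and the median 0.68. The counts in FL3 and dC26 depended on single arrays. In FL3 the count was 36 without VC replicate 1, 29 without Col-0 replicate 1, 48 without Col-0 replicate 2, and 2 or 3 without FL3 replicate 1 or 2. In dC26 leaving out VC replicate 1 or 2 gave 2 or 16 calls, leaving out Col-0 replicate 1 or 2 gave 2 or 3, and the count was 3 without either FL3 array and 0 without dC26 replicate 2.

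Ribosomal proteins of the plastid are encoded in part by other nuclear genes. Of 40 such loci on a list written at the same point, 10 were named, and their median log2 difference was 0.00 in FL3, -0.12 in dC26 and -0.52 in dC27. None passed in FL3 or dC26 by limma, where 1 and 4 had an unadjusted p under 0.05, beside 13.2% and 18.3% of all probe sets. In dC27 8 of the 10 fell, where 8.49% of all probe sets were called lower, and 17.4% of those in the third with the highest mean. AT5G24490 had the lowest value, with a log2 difference of -1.03.

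**Figure D3:**
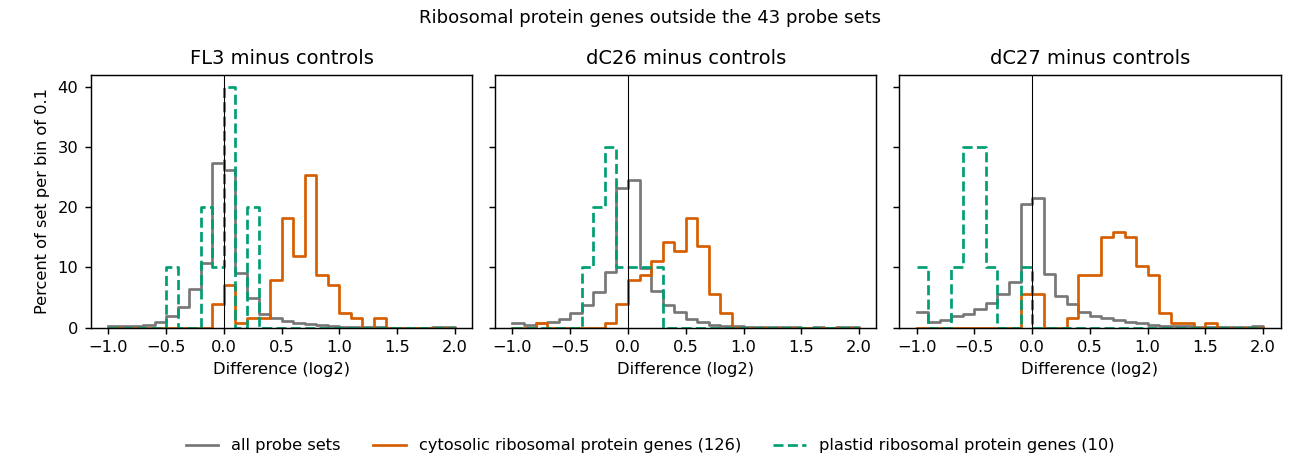
Distribution of the log2 difference from the mean of the 4 control arrays (x axis, bins of 0.1, with values beyond the ends counted in the end bins) as a percent of each set (y axis), in FL3, dC26 and dC27, for all probe sets, 126 cytosolic and 10 plastid ribosomal protein genes that are not among the 43 probe sets. The cytosolic genes are shifted to the right of all probe sets in each panel, with medians of 0.68, 0.41 and 0.73, and the plastid genes lie to the left in dC27.

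The only transcription factor among the named genes was AT5G46710, of the plant-specific PLATZ zinc-finger type. It read 77.4 and 87.7 in VC and 82.8 and 104 in Col-0, and 463 and 529 in FL3, 157 and 212 in dC26 and 163 and 291 in dC27. Both FL3 arrays stood above all 4 dC arrays, and dC26 and dC27 overlapped. The means were 4.68-fold in FL3, 1.82-fold in dC26 and 2.15-fold in dC27 over the higher control line. The log2 difference of FL3 from the dC lines, 1.24 ± 0.21, did not pass (limma, adjusted p = 0.064).

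Stress-induced genes included DI21 (AT4G15910), named for its induction by drought, and AT2G41730. DI21 read 159 and 160.2 in VC, 178 and 307 in Col-0, 605 and 414 in FL3, 383 and 499 in dC26 and 909 and 932 in dC27. 1 Col-0 array stood above the other controls, and dC27 above the other TaSIN lines. The difference of dC26 from dC27 was -1.05 ± 0.25 and did not pass (limma, adjusted p = 0.059). AT2G41730 is a gene of unknown molecular function that responds to impaired mitochondria. It read 228 and 348 in VC, 368 and 351 in Col-0, 2328 and 1638 in FL3, 1129 and 1230.2 in dC26 and 1344 and 1250.1 in dC27, so FL3 was the highest line, by a log2 difference of 0.65 ± 0.18 from the dC lines that did not pass (limma, adjusted p = 0.24). Its probe set is of the type marked _x_at, which can bind related transcripts.

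For 4 of the named genes no role is stated here. AT1G05060 read 125 and 129.6 in VC, 163 and 155 in Col-0, 416 and 237 in FL3, 913 and 658 in dC26 and 794 and 790.3 in dC27. Its lowest dC array was above its higher FL3 array, and the log2 difference of -1.27 ± 0.20 did not pass (FL3 minus the dC lines, limma, adjusted p = 0.051). AT1G03660 read 18.5 and 21.9 in VC, 21.3 and 24.4 in Col-0, 74.4 and 67.7 in FL3, 165 and 122 in dC26 and 93.7 and 198 in dC27. Here too both FL3 arrays were below all 4 dC arrays, by -0.84 ± 0.24 on the log2 scale, which did not pass (limma, adjusted p = 0.26).

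AT2G41650 read 55.1 and 53.1 in VC, 52.0 and 58.8 in Col-0, 122 and 118 in FL3, 109.9 and 123 in dC26 and 138 and 131 in dC27. Its replicates were close together in all 5 lines, and its means were 1.91-fold in FL3, 1.86-fold in dC26 and 2.11-fold in dC27 over the higher control line. AT5G40690 read 84.1 and 147 in VC, 261 and 179 in Col-0, 766 and 623 in FL3, 551 and 276 in dC26 and 524 and 711 in dC27. Its control arrays spanned a wide range, and the lower Col-0 array was above both VC arrays. VC lay below Col-0 in AT5G40690 by a log2 difference of -0.86 ± 0.34, which did not pass (limma, adjusted p = 0.66).

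The 23 probe sets with no gene listed, and the 1 with several, are given by their probe set identifiers. The 5 members with the largest smallest difference had no gene listed, and 263231_at and 251282_at are singled out here after their values were seen. 263231_at read 40.9 and 62.4 in VC, 20.9 and 49.0 in Col-0, 1691 and 1379.9 in FL3, 809.8 and 424 in dC26 and 1129.6 and 943 in dC27. 251282_at read 53.4 and 61.5 in VC, 61.2 and 62.7 in Col-0, 1799 and 1795 in FL3, 405 and 396 in dC26 and 538 and 1024 in dC27, so that FL3 was the highest line in both. In 251282_at FL3 exceeded the dC lines by a log2 difference of 1.69 ± 0.21 (limma, adjusted p = 0.018). This call ended without any 1 of the VC and FL3 arrays or without dC26 replicate 2 (adjusted p from 0.065 to 0.17), and without a variance trend (adjusted p = 0.088). The smallest difference over the 23 had a median of 0.97 and ranged from 0.80 to 3.17, and that over the 19 named genes had a median of 0.92 and ranged from 0.81 to 1.83.

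Taking all 43 probe sets, 2 differed between FL3 and the mean of the dC lines (limma, Benjamini-Hochberg adjusted p under 0.05), AT1G17960 with lower and 251282_at with higher values in FL3, where 0.171% of all probe sets were called lower, 0.0352% higher and 0.207% in all. The count was 1 without VC replicate 1, VC replicate 2, FL3 replicate 2 or dC26 replicate 2, and 6 without either dC27 array. Without FL3 replicate 1 it was 2, of which 1 was shared with the calls above. The median log2 difference was -0.10, with 17 probe sets above 0 and 26 below, beside 0.00 over all probe sets. Since the rule chose probe sets raised in FL3, dC26 and dC27, all probe sets are not a like comparison. Nothing is read from the share of the 43 called.

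The truncated lines differed from each other in 6 of the 43, all with lower values in dC26, where 0.822% of all probe sets were called lower, 2.12% higher and 2.95% in all (limma). Besides AT2G18180, AT1G43910 and AT1G24095 these were 259941_s_at (-1.33 ± 0.17), 246546_at (-0.57 ± 0.12) and 264460_at (-0.67 ± 0.15), as log2 differences of dC26 minus dC27. The call of 246546_at ended with any 1 of the 10 arrays left out (adjusted p from 0.060 to 0.12) and that of 264460_at with any but a Col-0 array left out (adjusted p from 0.072 to 0.11), while 259941_s_at passed under all 18 alternatives. The count was 3 without any 1 of the VC and FL3 arrays and 2 without dC26 replicate 2. The median difference was -0.47, and 38 of the 43 were below 0, against 0.00 and 11419 of 22746 over all probe sets. The rule chose probe sets raised in both lines. Over all probe sets, 8.2% were called higher than the controls in dC27 and 1.91% in dC26. All probe sets are therefore not a like comparison, and no lean of the 43 is read from it.

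**Figure D4:**
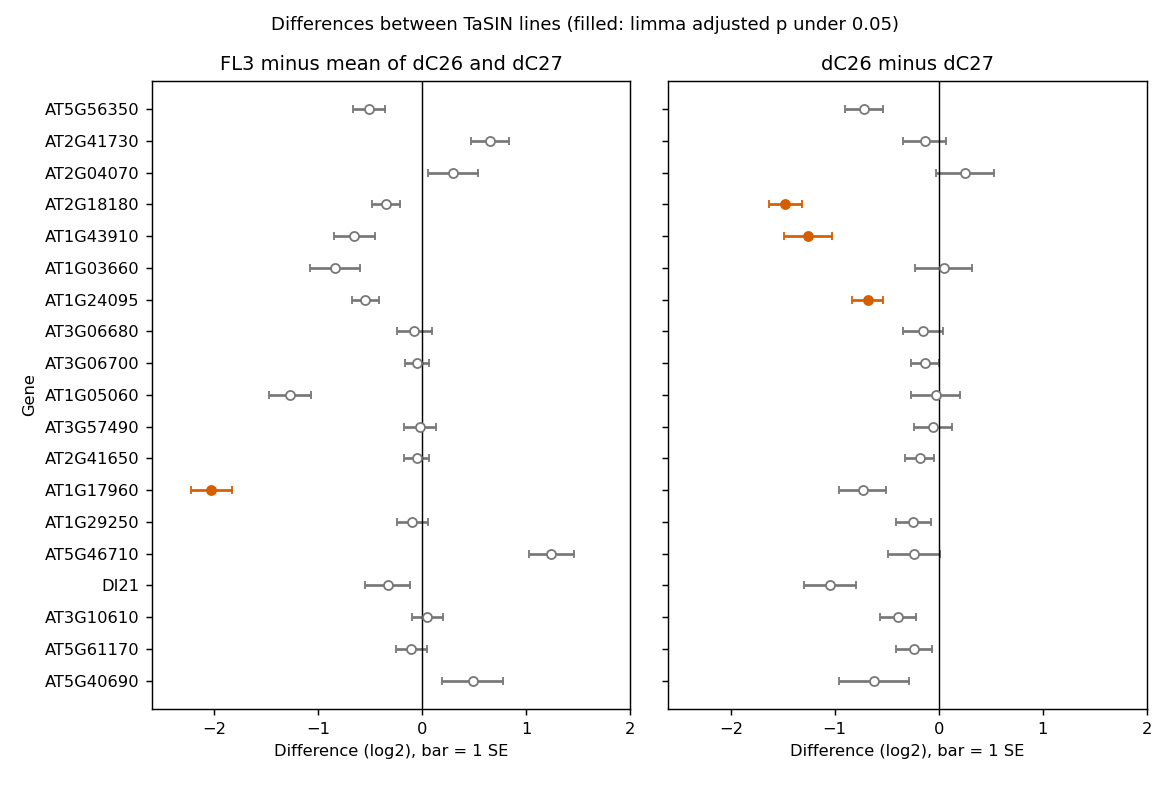
Log2 difference (x axis, bars 1 SE from the limma fit) of FL3 from the mean of dC26 and dC27 (left) and of dC26 from dC27 (right) for the 19 named genes (y axis). Filled points passed an adjusted p of 0.05: AT1G17960 on the left, and AT2G18180, AT1G43910 and AT1G24095 on the right. The 5 ribosomal protein genes lie near 0 on the left.

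VC and Col-0 did not differ past the threshold in any of the 43 (limma, 0 calls, against 0.0264% of all probe sets). At an unadjusted p under 0.05 there was 1, AT5G40690, beside 7.01% of all probe sets. The median log2 difference of VC from Col-0 was -0.04 and ranged from -0.86 to 0.45. The rule used the higher of the VC and Col-0 means, so a gap between these lines made selection of a probe set less likely. With only 6 of all 22746 probe sets called, 0 calls among the 43 could be foreseen. Nothing is therefore read from the counts of VC against Col-0.

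Genes of related pathways were followed with 7 lists, leaving out the 43 probe sets and the 8 set aside. Genes not named may be read by probe sets with no gene listed, also by the 23 among the 43. The counts below cover the named genes only. Of 21 genes known to respond to mitochondrial dysfunction, listed with earlier results of these data known, 11 were named. AT2G41730, AT2G04070, AT1G24095 and AT1G05060 are among the 43, and 4 were set aside, an overlap from which nothing is read. Of the other 3, AT5G43450, an oxygenase-type gene, rose in FL3 by a log2 value of 1.73, with differences of 0.29 in dC26 and 0.46 in dC27 that did not pass (limma). AT5G09570 (At12Cys), a cysteine-rich mitochondrial protein, rose by 1.48 in dC26 and 2.34 in dC27, with 0.58 in FL3 that did not pass. NDB2, an alternative NADH dehydrogenase of mitochondria, rose in dC27 by 1.26, with differences of 0.62 and 0.86 in FL3 and dC26 that did not pass. The rule named AT5G09570 and NDB2 among the genes to leave out, and both missed the cut. Nothing is therefore read from their rises. Called higher in FL3, dC26 and dC27 were 2.2%, 1.91% and 8.2% of all probe sets.

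In the list of alternative respiration 5 of 14 genes were named, with 0 past the threshold in FL3, 1 in dC26 and 3 in dC27, all higher (limma). Over all probe sets 2.2%, 1.91% and 8.2% were called higher. At an unadjusted p under 0.05 there were 2, 3 and 3 of the 5, beside 13.2%, 18.3% and 29.1% of all probe sets. NDB2, given above, is 1 of the 3 in dC27, so the 2 lists are not separate. NDB3, a relative of NDB2, rose by 0.87 in dC26 and 2.33 in dC27 on the log2 scale, and NDB4 rose by 1.22 in dC27. Control means were low, at 16.2 for NDB3 and 10.4 for NDB4. The dC27 means were 146 and 46.5, and NDB3 had a mean of 43.4 in dC26. Detoxification genes (6 of 15 named) had 0 rises in the 3 lines and 2 falls, both in dC27: ALDH7B4, an aldehyde dehydrogenase, by a log2 value of -0.89, and AT3G04000, an aldehyde reductase gene, by -0.61. In dC27 8.49% of all probe sets were called lower, and 17.4% of those in the third with the highest mean. At an unadjusted p under 0.05 there were 0, 2 and 2 of the 6, against the same shares of all probe sets as above. The listed relatives of the ATPase gene AT2G18190 (6 others named of 10) and antioxidant genes (2 of 14) had 0 calls by limma in the 3 lines, and 0 at an unadjusted p under 0.05. AT1G43910, the AAA-type ATPase gene among the 43, was not on that list, so other ATPases of this type are not covered by it. In the list of dark-induced genes 1 of 11 was named, AT2G05540, which fell in dC27 by a log2 value of -1.64. In the list of NAC transcription factors 0 of 11 were named.

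Arrays were alike in overall signal, with medians between 41.7 and 44.2, and replicate pairs correlated (Pearson, over probe sets) at 0.971 for dC27 and at 0.986 to 0.993 for the rest. Of the markers listed, 4 of 7 for leaf and 2 of 8 for root were named. Leaf markers were bright, with a summed intensity of 4 genes (LHCB4.1, PSAE-1, PSBY and RCA) of 14617 to 17487 on control arrays, 15754 to 15906 in FL3, 17722 to 19883 in dC26 and 12407 to 13373 in dC27, and LHCB4.1 fell in dC27 by a log2 value of -0.50 (limma, adjusted p = 0.012). PSAE-1, PSBY and RCA did not pass in dC27 (limma, adjusted p of 0.088, 0.38 and 0.46). In that line 8.49% of all probe sets were called lower, and 17.4% of those in the third with the highest mean. The root hair genes EXPA7 and EXPA18 summed to 25.5 to 38.7 on control arrays, 21.5 to 35.9 in FL3, 41.7 to 88.4 in dC26 and 40.0 to 65.9 in dC27, with 0 calls by limma. The part of these shifts in the results above was not tested. In whole seedlings fewer cells of a type and less RNA per cell cannot be told apart.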

How the data were processed

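Total RNA of whole seedlings was hybridised to Affymetrix arrays, 2 for each of 5 lines, described by the submitters as independent biological replicates. The deposited intensity values are 1 linear number per probe set and array. Array medians lie close together, and how the authors summarised and scaled them is not given in the sources used here. Values were taken as log2(intensity + 16), which compresses the 34.8% of values below 16. The 64 control probe sets were left out. Group means of all 10 arrays were fitted with limma 3.58.1 (R 4.3.3, variance trend, 5 residual degrees of freedom), p-values were two-sided and adjusted by Benjamini-Hochberg over 22746 probe sets with a threshold of 0.05, and the fit was tested on simulated data.

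Genes were named from the platform annotation: 13513 probe sets had 1 gene, 503 several and 8730 none, and 13484 of the first matched a locus of the RefSeq table (TAIR10.1). The members, the 7 pathway lists and the 2 ribosomal lists were chosen with earlier results of these data known. All members with 1 gene were named, with those nearest the cut. Folds are differences of log2(intensity + 16) turned to a linear ratio. The number of arrays limits the precision. Promoter and protein sequences were not analysed here. Alternatives were other pseudocounts, normalizations, filters, variance priors and cuts, a replicate block, and leaving out each array.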

Additional observations from a re-analysis of the deposited data

Results flagged for a closer look

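In 8 of the 43 probe sets a difference among the TaSIN lines passed its own test by limma. Between FL3 and the mean of the dC lines, AT1G17960 was lower in FL3, with a log2 difference of -2.03, and 251282_at was higher, with 1.69. AT2G18180, AT1G43910 and AT1G24095 were lower in dC26 than in dC27, by log2 differences of -1.47, -1.26 and -0.68, as were 259941_s_at, 246546_at and 264460_at, by -1.33, -0.57 and -0.67. The calls of AT1G17960, AT2G18180 and 259941_s_at held under all 18 alternatives. The others ended under some: 12 for AT1G24095 (any 1 array left out, a pseudocount of 1 and the replicate block), 11 for 246546_at, 9 for 264460_at, 6 for 251282_at and 2 for AT1G43910. With 1 full-length line, construct and line cannot be told apart in the comparison of FL3 with dC26 and dC27.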

How the results depend on the processing

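The number of probe sets chosen by the rule was 43. It was 72 with a pseudocount of 1, 17 with a pseudocount of 64, 121 with a cut of 0.6, 17 with a cut of 1, 18 when every TaSIN array had to exceed every control array by the cut, and 34 to 56 with 1 array left out. It was 43 after quantile normalization, 44 after median centring and 43 without the dimmest probe sets. The 2 calls of FL3 against the dC lines became 1 without a variance trend, 4 with a robust variance prior and 1 to 6 with 1 array left out. The 6 calls of dC26 against dC27 became 2 to 6 with 1 array left out, and of these only 2 to 4 were among the 6: without dC27 replicate 2, for example, 3 of 6 were shared, without dC26 replicate 1 3 of 5 and without dC27 replicate 1 2 of 4. For the ribosomal protein genes, alternatives were added after their values were seen. The count ranged from 2 to 91 in FL3, from 0 to 38 in dC26 and from 85 to 109 in dC27 with 1 array left out. The cause of these changes was not tested, although leaving out an array of a line leaves 1, whose spread is assumed to be that of the other lines.

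Replicate numbers did not pair the samples: the 10 correlations of deviations between lines lay between -0.20 and 0.09. With the replicate block the counts were 3 for FL3 against the dC lines, 4 for dC26 against dC27 (3 shared, with AT1G24095, 246546_at and 264460_at at adjusted p of 0.063, 0.068 and 0.062), 0 for VC against Col-0, and 63, 14 and 102 for the ribosomal protein genes in FL3, dC26 and dC27.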

Other observations

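Replicate arrays of a TaSIN line were far apart in a few of the 43 probe sets. 266037_at read 782 and 219 on the dC27 arrays, and 250024_at read 337 and 90.3 there. AT1G03660 read 93.7 and 198 in dC27. dC26 replicate 1 was the lowest of the 6 TaSIN arrays in 18 of the 43 probe sets and dC26 replicate 2 in 11.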
